A study of Arabidopsis thaliana with 12 samples.

Results

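The floral organ identity MADS-box genes of Arabidopsis thaliana are 10 transcription factor genes picked by locus identifier from the deposited tables. They are AP1 (AT1G69120), CAL (AT1G26310), FUL (AT5G60910), AP3 (AT3G54340), PI (AT5G20240), AG (AT4G18960), SEP1 (AT5G15800), SEP2 (AT3G02310), SEP3 (AT1G24260) and SEP4 (AT2G03710). All 10 were found among the 25424 genes of the count table, and all 10 passed the filter on low counts that left 21897 genes tested. RNA-seq was made from inflorescence meristems, the growing tips that form flowers, in 4 groups of 3 libraries. The groups were pip2 at high humidity, pip2 at low humidity, col0 at high humidity and col0 at low humidity. The mutant is pip2 in the genotype labels, pip2d in the titles and pip2;5 in the study's design text, after the aquaporin gene PIP2;5, and col0 is its wild type. The kind of mutant allele, the humidity values, the age of the plants and the number of tips pooled per library are not stated in the labels. The labels do not say whether replicates came from separate plantings, and each p-value therefore measures library-to-library spread that may be technical.

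In the ABCE model, the identity of each floral organ follows from which MADS proteins are present together. A-class proteins pattern sepals and petals, B-class proteins petals and stamens, and the C-class protein stamens and carpels, while E-class (SEPALLATA) proteins join the others in complexes of 4 that bind DNA. AP1, CAL and FUL also give a young primordium its identity as a flower, before any organ forms.

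Library totals ran from 17850187 to 28445060 counts, and log2 CPM (counts scaled to a common library total) correlated at 0.982 to 0.990 between replicates across genes. PIP2;5 averaged 0.962 ± 0.204 CPM in pip2 at high humidity and 50.8 ± 1.33 CPM in col0 at high humidity. At low humidity it averaged 0.785 ± 0.348 CPM in pip2 and 70.8 ± 0.876 CPM in col0 (SD, n = 3 each), as the genotype labels say. Of 7 markers of the inflorescence meristem, 6 were measured in every library, with STM at 21.1 to 33.0 TPM (the deposited length- and depth-scaled level) and WUS at 17.7 to 35.9 TPM. LFY and TFL1 of the same list stood lower, at 1.68 to 3.66 TPM and 0.379 to 1.53 TPM. CLV3 was not analysed here. Some markers of anthers were far more abundant: GRP17, a protein of the pollen coat, stood at 1270 to 2570 TPM, and A9, a gene of the tapetum, at 151 to 346 TPM. Others were below STM and WUS, with DYT1 at 1.11 to 5.56 TPM, MYB80 at 2.76 to 8.92 TPM and MS1 at 5.6 to 12.4 TPM. RNA of anther genes was thus present in all 12 samples labelled as meristem. In such bulk samples fewer cells of a type and less RNA per cell cannot be told apart.

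All 10 genes were expressed in all 12 libraries, and their order was steep. SEP3, PI and AP3 led, with 297 ± 28.2, 263 ± 23.0 and 249 ± 13.6 TPM (SD, n = 12 libraries over all groups, as for the levels that follow). The ranges of SEP3 and PI overlapped, as did those of PI and AP3. SEP2 followed at 86.2 ± 7.72 TPM and AP1 at 79.0 ± 6.13 TPM, with overlapping ranges. SEP1 averaged 65.1 ± 3.09 TPM, AG 38.3 ± 2.66 TPM, FUL 19.2 ± 1.71 TPM, SEP4 10.1 ± 0.949 TPM and CAL 3.64 ± 0.703 TPM. From AP1 down, no range overlapped that of its neighbour. AP1 and CAL are close paralogs that act together in floral meristem identity, and CAL stood at 3.61% to 6.14% of the AP1 level. The summed TPM of the 10 genes was 1050 to 1160 in pip2 at high humidity, 1050 to 1150 in pip2 at low humidity, 1090 to 1190 in col0 at high humidity and 1010 to 1150 in col0 at low humidity.

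The length behind the deposited TPM bears on this order. For 89.8% of 20032 genes, the ratio of CPM to TPM per kilobase of whole gene, introns included, lay within 10% of its median, against 26.9% when exon length was used. TPM computed over introns gives a lower level to a gene with long introns. Per kilobase of exon, SEP3 (304 ± 32.6 CPM), PI (278 ± 26.8 CPM) and AP3 (234 ± 16.1 CPM) still led (SD, n = 12). AP1 then stood at 95.4 ± 7.39 CPM per kilobase, above SEP2 at 86.0 ± 7.94, and AG at 52.8 ± 2.95, above SEP1 at 45.2 ± 2.21. The ranges of AP1 and SEP2 overlapped on this scale, as did those of AG and SEP1. FUL, SEP4 and CAL kept the last places with 29.5, 9.44 and 5.60 CPM per kilobase of exon. The exon-based scale was chosen after the data were seen. SEP1 was also the one member with annotated genes overlapping it, and its CPM per TPM was 0.693 of the typical value, against 0.956 to 1 in the others. Whole gene length was 2.74 times exon length in AG and 1.9 times in SEP1, while SEP1 had 1.7 times the TPM of AG. The place of SEP1 below AG per kilobase of exon thus rests on its low CPM per TPM as well as on length. Whether the overlap accounts for that low CPM per TPM was not tested. Comparisons of 1 gene between libraries are not touched by its length.

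**Figure D1:**
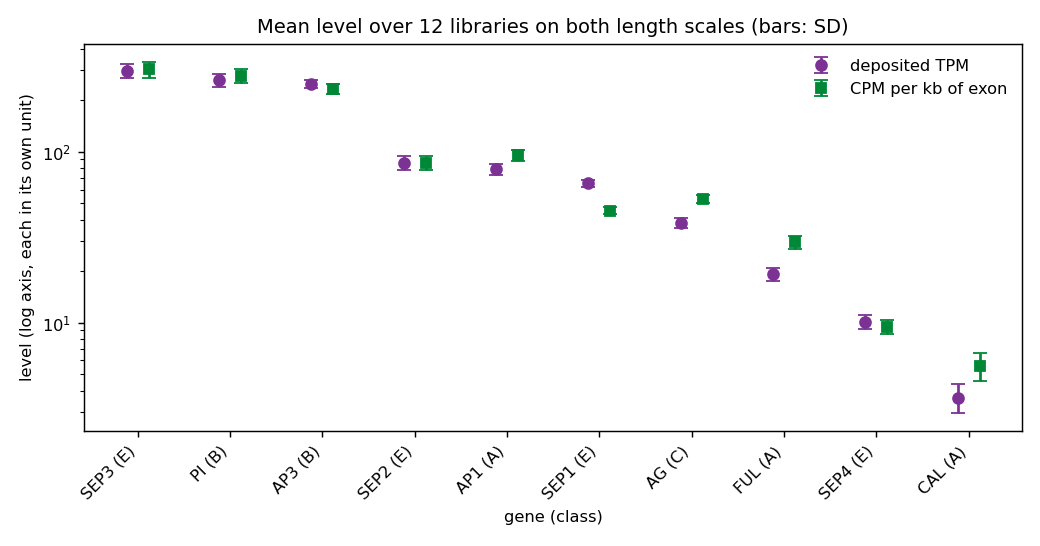
Mean level of the 10 genes over 12 libraries on a log axis, as deposited TPM (circles) and as CPM per kilobase of exon (squares), with SD bars. SEP3, PI and AP3 stand highest on both scales. By mean, AP1 passes SEP2 and AG passes SEP1 on the exon scale, with overlapping ranges in both pairs.

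Humidity changed 3 of these genes in the test over both genotypes. SEP2 and CAL were lower at high humidity, and PI was marginally higher over both genotypes. The other 7 genes did not pass in any comparison of this fit, which holds no replicate block. A gene passed when its adjusted p was under 0.05 in edgeR's quasi-likelihood test with Benjamini-Hochberg adjustment over all 21897 tested genes. In pip2, high against low humidity, 2 of the 10 genes passed, both lower, where 24.2% of all tested genes passed. In col0, 1 of the 10 passed, lower, where 30.2% of all tested genes passed. Over both genotypes, 1 passed as higher and 2 as lower, where 41.6% of all tested genes passed. All 3 counts were thus close to or below the share of all tested genes, and nothing particular to the 10 is read from them. With the replicate number of the titles as a block, 6 of the 10 passed over both genotypes, where 45.8% of all tested genes passed: AP1, FUL and SEP3 were added (adjusted p = 0.0340, 0.0409 and 0.0396). In col0, where all 3 pairs of same-numbered libraries deviated together (correlations of 0.17 to 0.37), the block added PI (adjusted p = 0.00699). At an unadjusted p under 0.05 the counts were 3 of 10 in pip2, 4 in col0 and 5 over both genotypes. The share of all tested genes at this looser threshold is not given here, so nothing is read from these counts. The median log2 fold change of the 10 genes over both genotypes was -0.03, and that of all tested genes 0.01. Their median absolute log2 fold change was 0.12, and that of all tested genes 0.19.

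**Figure D2:**
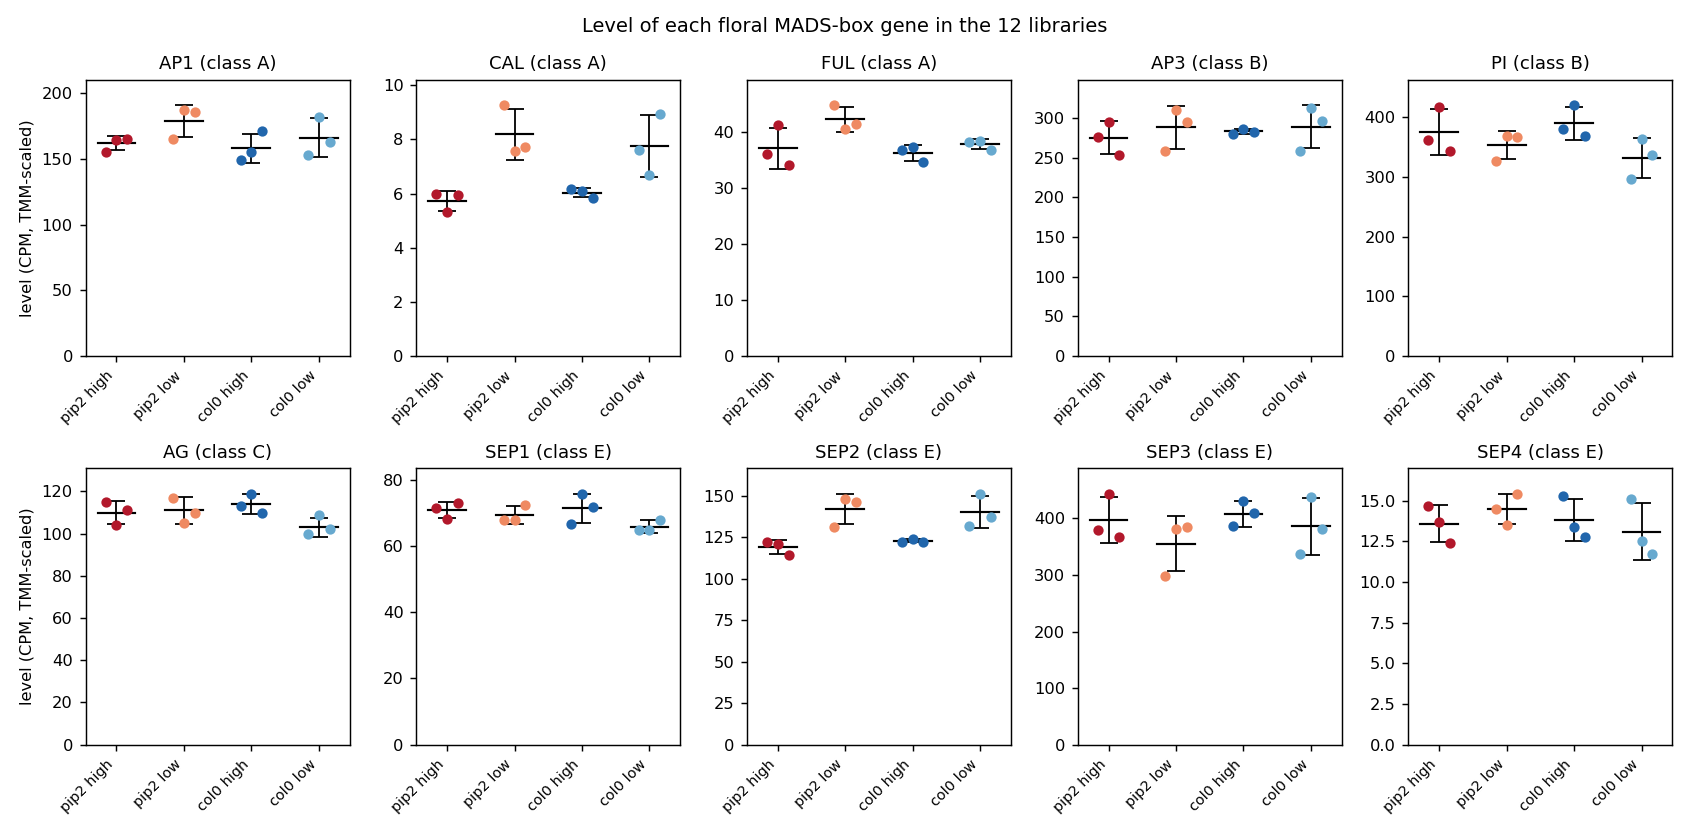
Level of each gene in CPM, with library totals scaled by TMM, in each of 12 libraries (points), with the group mean (line) and SD (bar, n = 3); every axis starts at 0. In SEP2 and CAL the 6 high-humidity libraries all lie below the 6 low-humidity ones. The share of all tested genes that separate in this way is not given here.

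Of the A-class genes CAL alone passed without the block, in pip2 and over both genotypes. CAL, the least abundant of the 10, had 5.98, 5.31 and 5.94 CPM in pip2 at high humidity, against 9.28, 7.58 and 7.72 CPM in pip2 at low humidity. In col0 it had 6.16, 6.08 and 5.84 CPM at high humidity, against 7.63, 6.68 and 8.95 CPM at low humidity. The 6 high-humidity libraries lay below all 6 low-humidity libraries. The share of all tested genes whose groups separate is not given here. Separation of groups, here and in the paragraphs below, is therefore a description only. These levels rest on 107 to 188 counts per library. The log2 fold change was -0.51 ± 0.14 (SE) in pip2 (adjusted p = 0.0150) and -0.37 ± 0.14 in col0 (adjusted p = 0.0624). Over both genotypes CAL fell by 0.44 ± 0.10 on the log2 scale (adjusted p = 0.00219), to 0.737 of its low-humidity level (95% interval 0.635 to 0.855). The call over both genotypes held without any 1 of the 12 libraries. The call in pip2 was lost without pip2 high replicate 2 (adjusted p = 0.0559), without pip2 low replicate 1 (adjusted p = 0.0749) and on log2 TPM with limma. In col0 CAL passed without col0 low replicate 2 (adjusted p = 0.0342).

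AP1, which specifies floral meristems, sepals and petals, had 155, 164 and 165 CPM in pip2 at high humidity and 165, 187 and 186 CPM in pip2 at low humidity. Its levels in col0 were 149, 155 and 171 CPM at high humidity and 153, 182 and 163 CPM at low humidity. The groups overlapped in col0 and stood just apart in pip2. Its log2 fold change over both genotypes was -0.11 ± 0.05 (adjusted p = 0.0947). It passed without pip2 low replicate 1 (adjusted p = 0.0398), without col0 high replicate 3 (adjusted p = 0.0466) and without col0 low replicate 1 (adjusted p = 0.0452). FUL, which acts with AP1 and CAL in meristem identity and later in the fruit, averaged 37.1 ± 3.72 CPM in pip2 at high humidity and 42.3 ± 2.28 CPM in pip2 at low humidity. In col0 its averages were 36.3 ± 1.46 CPM at high humidity and 37.9 ± 0.886 CPM at low humidity (SD, n = 3 each). Over both genotypes its log2 fold change was -0.12 ± 0.05 (adjusted p = 0.0675). Without pip2 high replicate 2, where FUL reached 41.3 CPM, it passed in pip2 (adjusted p = 0.0121) and over both genotypes (adjusted p = 0.0131).

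The B-class genes AP3 and PI encode proteins that work as a pair, and they did not keep the same ratio. PI had 362, 418 and 344 CPM in pip2 at high humidity, against 327, 368 and 367 CPM in pip2 at low humidity. The col0 libraries gave 380, 421 and 369 CPM at high humidity, against 297, 363 and 337 CPM at low humidity. The groups overlapped in pip2 and stood apart in col0. The log2 fold change of PI was 0.08 ± 0.09 in pip2 (adjusted p = 0.531) and 0.23 ± 0.09 in col0 (adjusted p = 0.0532). Over both genotypes PI rose by 0.16 ± 0.06 (adjusted p = 0.0489), a fold of 1.12 (95% interval 1.02 to 1.22). This call is at the edge of the threshold. It stayed only without pip2 high replicate 3, col0 high replicate 3 or col0 low replicate 2, and was lost without any of the other 9 libraries, with adjusted p-values of 0.0228 to 0.133 over the 12 omissions. In col0 PI passed without pip2 high replicate 2 (adjusted p = 0.0163), pip2 high replicate 3 (0.0498), pip2 low replicate 1 (0.0489) or col0 low replicate 2 (0.0264). PI in col0 also passed with the size factors of DESeq2 (adjusted p = 0.048), with DESeq2 (0.036) and with only the groups compared (0.0267). It passed with limma on log2(TPM + 1) (0.026) too, but not with the robust option off or without the filter on low counts.

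AP3 had 276, 295 and 253 CPM in pip2 at high humidity, against 258, 310 and 295 CPM in pip2 at low humidity. In col0 it had 280, 286 and 282 CPM at high humidity, against 258, 312 and 296 CPM at low humidity. The groups overlapped in both genotypes, and the log2 fold change over both was -0.05 ± 0.06 (adjusted p = 0.534). The range of its 4 group means was 0.069 on the log2 scale, which 2.48% of tested genes fell below, against a median of 0.332 over all tested genes. In the other members this share ran from 8.75% (SEP1) to 69.7% (CAL). The SD of AP3 within groups, 0.113 on the same scale, was larger than the range. Its low place is therefore not read as unusual stability. The TPM ratio of PI to AP3 was 1.09, 1.17 and 1.12 in pip2 at high humidity and 1.03, 0.983 and 1.02 in pip2 at low humidity. In col0 the ratio was 1.13, 1.21 and 1.08 at high humidity and 0.948, 0.958 and 0.942 at low humidity. All 6 high-humidity ratios lay above all 6 low-humidity ratios. The ratio was chosen after the values of both genes were known, so it is given with no test, and its distance from 1 depends on the length used for each gene.

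AG, the C-class gene that also ends stem cell activity in the flower, had 115, 104 and 111 CPM in pip2 at high humidity and 117, 105 and 110 CPM in pip2 at low humidity. Levels in col0 were 113, 119 and 110 CPM at high humidity, against 99.6, 109 and 102 CPM at low humidity. The groups overlapped in pip2 and lay side by side without overlap in col0. The log2 fold change was -0.01 ± 0.06 in pip2 (adjusted p = 0.939) and 0.15 ± 0.06 in col0 (adjusted p = 0.0831). It passed in col0 without pip2 high replicate 2 (adjusted p = 0.0442), a library that enters this comparison only through the shared spread. The TPM ratio of AP1 to AG, whose proteins act in outer and inner whorls, was 1.74 to 2.13 in the high-humidity libraries and 1.91 to 2.44 in the low-humidity libraries, with overlap.

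**Figure D3:**
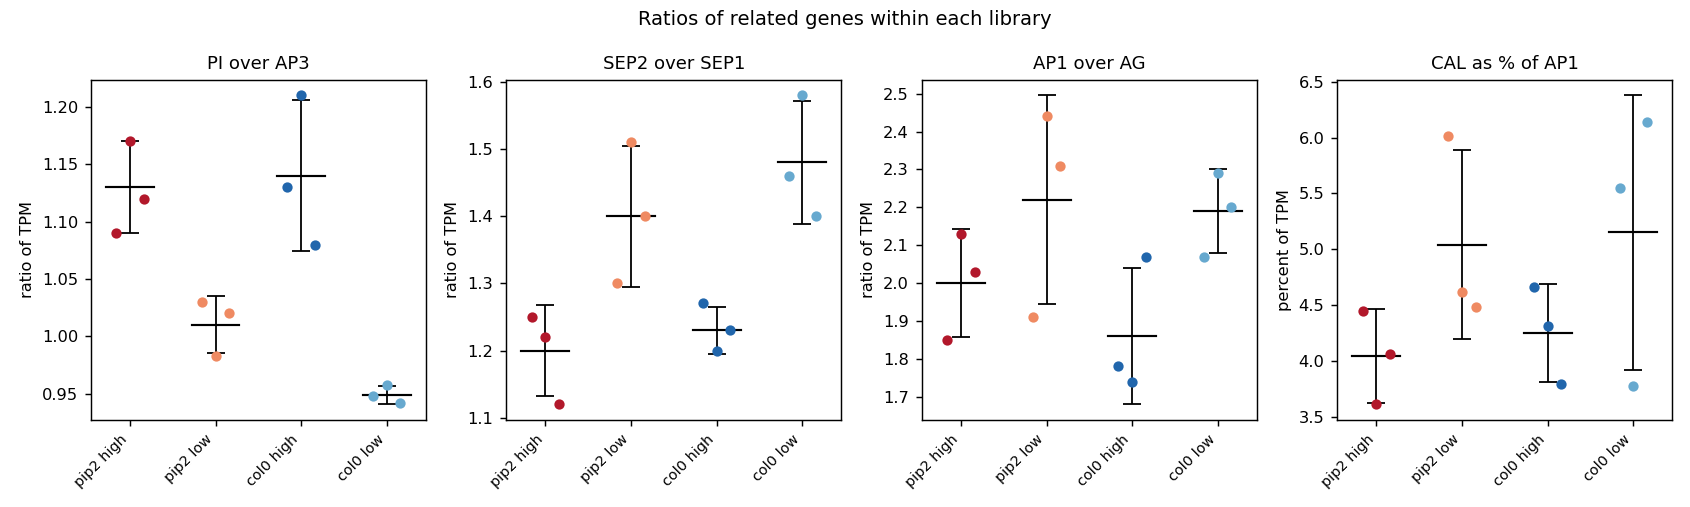
Ratios of related genes within each library, from deposited TPM, with group mean (line) and SD (bar, n = 3); axes do not start at 0. PI over AP3 is higher and SEP2 over SEP1 lower in all 6 high-humidity libraries than in all 6 low-humidity ones, while the other ratios overlap.

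Among the E-class genes, SEP2 was lower at high humidity in both genotypes. It had 122, 121 and 114 CPM in pip2 at high humidity, against 131, 148 and 146 CPM in pip2 at low humidity. The values in col0 were 122, 124 and 122 CPM at high humidity, against 132, 151 and 137 CPM at low humidity. Neither pair of groups overlapped. The log2 fold change was -0.25 ± 0.06 in pip2 (adjusted p = 0.00860) and -0.19 ± 0.06 in col0 (adjusted p = 0.0263). Over both genotypes SEP2 fell by 0.22 ± 0.04 on the log2 scale (adjusted p = 0.000749), to 0.859 of its low-humidity level (95% interval 0.805 to 0.916). The calls in pip2 and over both genotypes held without any 1 of the 12 libraries. The call in col0 was lost without col0 high replicate 1, 2 or 3 (adjusted p = 0.0639, 0.0742 and 0.0731) and without col0 low replicate 2 (adjusted p = 0.130).

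SEP1, the closest paralog of SEP2, had 71.3, 68.2 and 72.8 CPM in pip2 at high humidity and 67.9, 67.8 and 72.3 CPM in pip2 at low humidity. In col0 it had 66.6, 75.5 and 71.8 CPM at high humidity and 64.8, 64.7 and 67.9 CPM at low humidity. The groups overlapped in both genotypes, and its log2 fold change over both was 0.07 ± 0.04 (adjusted p = 0.176). The TPM ratio of SEP2 to SEP1 was 1.12 to 1.27 in the high-humidity libraries and 1.30 to 1.58 in the low-humidity libraries, with no overlap. This ratio too was chosen with the values known and has no test. How the authors counted reads that match both paralogs is not stated, and the split of reads between SEP1 and SEP2, and between AP1 and CAL, is uncertain.

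SEP3, the most abundant of the 10 and the E-class protein with the widest set of MADS partners, had 380, 444 and 367 CPM in pip2 at high humidity and 298, 381 and 384 CPM in pip2 at low humidity. In wild type col0 it had 386, 431 and 409 CPM at high humidity and 338, 438 and 382 CPM at low humidity. The groups overlapped in both genotypes, and its log2 fold change over both was 0.12 ± 0.08 (adjusted p = 0.237). SEP4, which acts redundantly with the other SEP genes, stood at 11.7 to 15.4 CPM over the 12 libraries with a log2 fold change of 0.00 ± 0.08 (adjusted p = 0.975). SEP3 made up 65.5% to 68.8% of the summed SEP TPM in the high-humidity libraries and 58.6% to 66.0% in the low-humidity libraries, and SEP4 made up 1.83% to 2.75% in all 12.

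The genotype contrast compared pip2, where PIP2;5 RNA was low, with col0, and none of the 10 passed it. At high humidity, pip2 against col0, 0 of 10 passed, where 0.589% of tested genes passed. The log2 fold changes of the 10 genes ran from -0.07 ± 0.15 (CAL) to 0.04 ± 0.07 (FUL), with 0 genes at an unadjusted p under 0.05. At low humidity 0 of 10 passed, where 2.98% of tested genes passed. FUL had the smallest p there, at 44.9, 40.6 and 41.4 CPM in pip2 against 38.3, 38.5 and 36.9 CPM in col0. These groups did not overlap, and the log2 fold change was 0.16 ± 0.07 (unadjusted p = 0.0468, adjusted p = 0.352). Over both humidities 0 of 10 passed, where 3.08% of tested genes passed, and 0 had an unadjusted p under 0.05. The share of all tested genes at this unadjusted threshold is not given here. Nothing is therefore read from the counts at that threshold. DESeq2 and limma also gave 0 calls at high humidity, at low humidity and over both humidities. DESeq2 passed 239, 857 and 937 of all genes there, and limma on log2(TPM + 1) passed 106, 545 and 584. The 95% interval of the fold over both humidities was narrow for SEP1 (0.962 to 1.09) and AG (0.952 to 1.08) and wider for SEP3 (0.840 to 1.06) and CAL (0.864 to 1.16).

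The interaction, the humidity response of pip2 minus that of col0, passed in 0 of 10 genes by edgeR, DESeq2 and limma. In edgeR 0.443% of tested genes passed. At an unadjusted p under 0.05 the count was 0 of 10. The share of all tested genes at that threshold is not given here, so nothing is read from this count. The largest departures were those of SEP4 at -0.17 ± 0.16, PI at -0.15 ± 0.12, CAL at -0.15 ± 0.20 and AG at -0.15 ± 0.09 (adjusted p = 0.880, 0.850, 0.925 and 0.733). The calls of CAL in pip2 alone and of SEP2 in both genotypes are therefore not shown to differ between genotypes. The intervals of the interaction ran from 0.670 to 1.34 in fold.

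**Figure D4:**
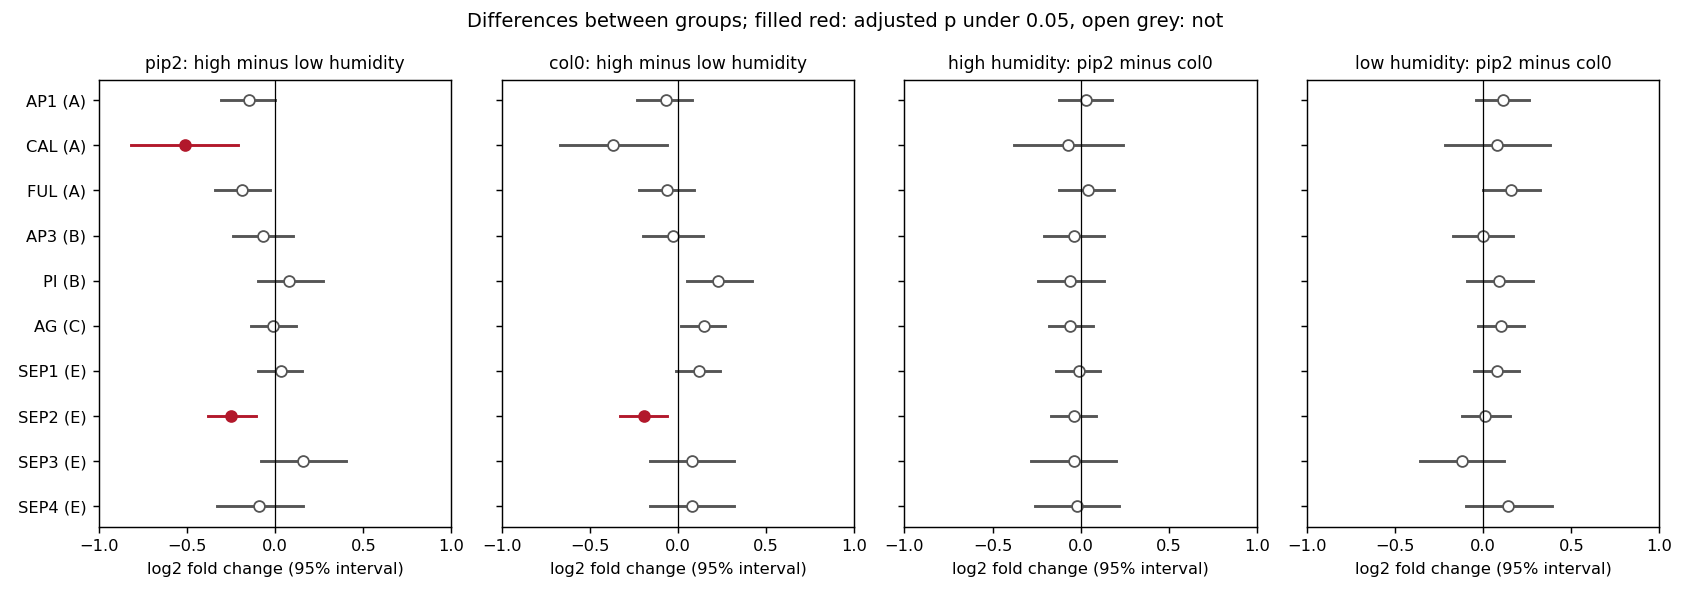
Log2 fold change of each gene (class in brackets) in edgeR with its 95% interval for the 4 comparisons of 2 groups; filled red points have an adjusted p under 0.05. SEP2 in both genotypes and CAL in pip2 are the 3 points that passed, all below 0, and no gene passed between genotypes.

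The spread between replicates was itself shared by some of the genes. After each group's mean was taken off, the deviations of AP3, PI, SEP2 and SEP3 were correlated over the libraries, though their signs were mixed where the deviations were small, as in pip2 high replicate 1 and col0 low replicate 3. Their 6 pairwise correlations were 0.773 to 0.931 over 12 libraries, which share 4 group means. The other 39 pairs among the 10 genes ran from -0.730 to 0.752. SEP3 deviated most, by -0.24 on the log2 scale in pip2 low replicate 1 and 0.19 in col0 low replicate 2, and AP3 by -0.15 and 0.12 in the same libraries. SEP1 and AG deviated by at most 0.10 in size, and AP3 correlated with SEP1 at -0.029 and with AG at -0.241. Of all tested genes, 0.763% correlated with AP3 at least as highly as the lowest of PI, SEP2 and SEP3 did, and the median over all tested genes was 0.0297. The 4 genes were grouped after these values were seen, so the correlations are a description.

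**Figure D5:**
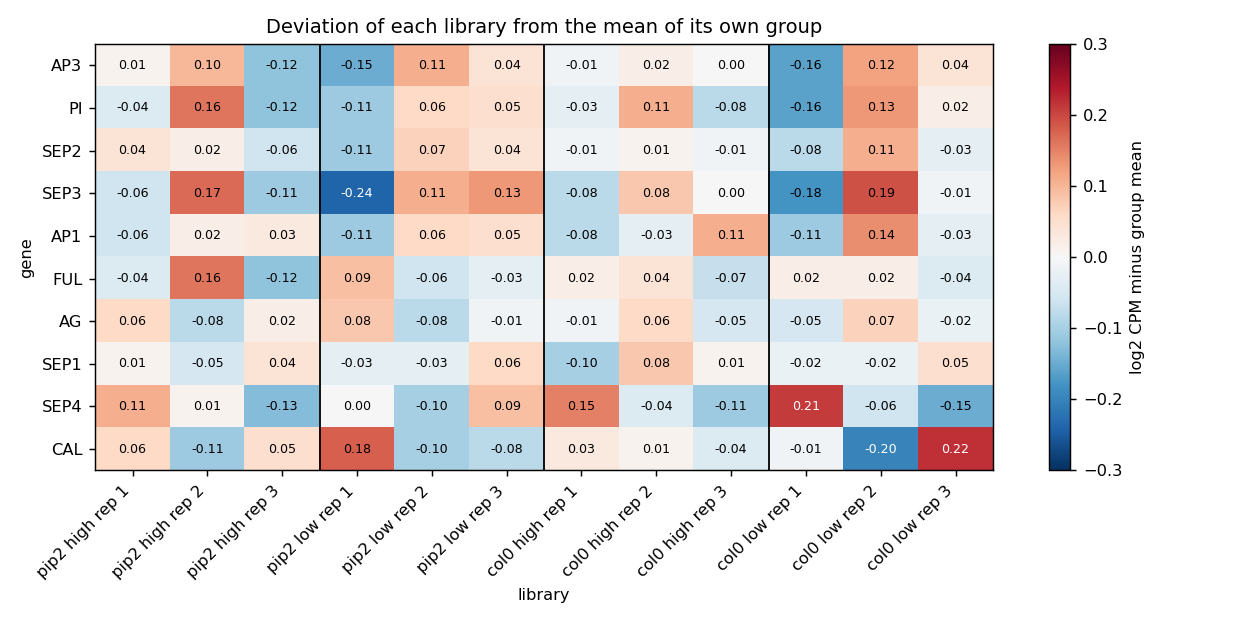
Log2 CPM of each gene in each library minus the mean of that library's own group (colour scale in log2 units, numbers in the cells). AP3, PI, SEP2 and SEP3 all lie below their group means in pip2 low replicate 1 and col0 low replicate 1 and all above in col0 low replicate 2, while SEP1 and AG stay within 0.10.

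The genes whose levels followed a member most closely over the 12 libraries were sought by Pearson's r of log2 CPM, for 1 gene of each class, among 8655 genes that carry a symbol and average 1 CPM or more. AP1 was followed by BRK1 (r = 0.923), GSTT1 (0.912) and TIM9 (0.881). AP3 was followed by MES14 (r = 0.963), SCPL51 (0.946) and ELI3-1 (0.90). AG was followed by THH1 (r = 0.842) and MMH-1 (0.834), and SEP3 by PDE334 (r = 0.916), RPE (0.914) and TLP18.3 (0.904). The organ identity genes themselves were left out of this search. None of the genes named here is another MADS-box gene, and the highest values over so many genes are high by selection.

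Among related MADS-box genes of the flower, 1 of 9 tested rose and 3 fell at high humidity over both genotypes, where 41.6% of all tested genes passed. AGL6, a close relative of the SEP genes, fell by 0.60 ± 0.06 on the log2 scale (adjusted p = 8.41e-07). SOC1, a flowering-time integrator that is turned down as flowers form, fell by 0.35 ± 0.09 (adjusted p = 0.00485), and STK, the ovule identity gene, by 0.36 ± 0.09 (adjusted p = 0.00822). SVP, a repressor of flowering that also keeps organ identity genes off in young flowers, rose by 0.26 ± 0.09 (adjusted p = 0.0306). The call of SVP was lost without pip2 high replicate 1, pip2 low replicate 2 or 3, col0 high replicate 1 or col0 low replicate 1 (adjusted p up to 0.0941). None passed between genotypes over both humidities, where 3.08% of all tested genes passed, and AGL6 had the smallest p, at -0.14 ± 0.06 (adjusted p = 0.306).

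Of the activators and cofactors of the organ identity genes, 17 of 18 were tested, and 4 rose and 4 fell at high humidity over both genotypes, close to the 41.6% of all tested genes. The promoters of flowering SPL9, SPL5 and SPL4 fell by 0.40 ± 0.04, 0.48 ± 0.06 and 0.28 ± 0.05 on the log2 scale (adjusted p = 6.37e-07, 1.44e-05 and 0.000479). ULT1, which helps to activate AG, rose by 0.31 ± 0.06 (adjusted p = 0.000943). Its log2 fold change was 0.50 ± 0.09 in pip2 (adjusted p = 0.000674) and 0.12 ± 0.09 in col0 (adjusted p = 0.358), with an interaction that did not pass (adjusted p = 0.373). LFY, the main direct activator of AP1, AP3 and AG, falls outside the naming rule and is given for its role: its log2 fold change was 0.20 ± 0.17 (adjusted p = 0.383) at a mean of 3.56 CPM. Between genotypes over both humidities 3.08% of all tested genes passed. SPL5 alone of these lists passed there, lower in pip2 by 0.37 ± 0.06 (log2 fold change -0.37, adjusted p = 0.00300). Of 14 repressors and boundary genes 1 passed for humidity over both genotypes, a smaller share than the 41.6% of all tested genes. It was CLF, a Polycomb subunit that keeps AG silent in leaves, which fell by 0.27 ± 0.06 (adjusted p = 0.00107). AP2, the non-MADS A-class gene, had the smallest p of that list between genotypes, at -0.13 ± 0.05 (adjusted p = 0.233).

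Of known targets of the floral MADS proteins, 9 of 10 were tested, and 3 rose and 1 fell at high humidity over both genotypes, again close to the 41.6% of all tested genes. NAP, a target of AP3 and PI, rose by 1.41 ± 0.09 on the log2 scale (adjusted p = 2.46e-09). GNC and GNL, GATA factors that AP3 and PI repress, rose by 0.29 ± 0.07 and 0.71 ± 0.21 (adjusted p = 0.00368 and 0.0126). The log2 fold change of GNC was 0.57 ± 0.10 in pip2 (adjusted p = 0.000585) and 0.01 ± 0.10 in col0 (adjusted p = 0.969), with an interaction of 0.56 ± 0.14 that did not pass (adjusted p = 0.133). That of GNL was 0.42 ± 0.31 in pip2 (adjusted p = 0.353) and 1.0 ± 0.29 in col0 (adjusted p = 0.0156), with an interaction of -0.57 ± 0.43 (adjusted p = 0.824). The call of GNL in col0 was lost without col0 high replicate 1 or col0 low replicate 2 (adjusted p up to 0.0579). GA3OX1, a gibberellin synthesis gene, fell by 0.57 ± 0.19 (adjusted p = 0.0230), a call lost without pip2 high replicate 2 (adjusted p = 0.0599) or col0 low replicate 1 (adjusted p = 0.0810). None passed between genotypes over both humidities, where 3.08% of all tested genes passed, with GNC at -0.14 ± 0.07 (adjusted p = 0.381). At low humidity GNC was lower in pip2, with a log2 fold change of -0.42 ± 0.10 (adjusted p = 0.0314), a call lost without any of the 3 pip2 low libraries, col0 high replicate 2 or col0 low replicates 1 or 2 (adjusted p up to 0.159).

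Some markers of other tissues moved with humidity beside these results. Over both genotypes 41.6% of all tested genes passed, and the anther, carpel and meristem lists below had smaller shares. Of 10 anther and tapetum markers 2 rose over both genotypes, GRP17 by 0.47 ± 0.09 and GRP19 by 0.39 ± 0.10 (adjusted p = 0.000707 and 0.00673), while the median of the list was -0.22. None of the 10 was at 0 in any library. Their summed level was 4140 to 4680 CPM in pip2 at high humidity, 3210 to 4130 in pip2 at low humidity, 3640 to 4620 in col0 at high humidity and 2700 to 3700 in col0 at low humidity. GRP17 and GRP19, with means of 2340 and 1030 CPM, made up most of this sum, and ATA7, the next highest, averaged 133 CPM. The sum therefore follows these 2 genes and not the list as a whole. Of 8 carpel and ovule markers 1 fell (STK), with sums of 136 to 161 CPM in pip2 at high humidity, 148 to 165 in pip2 at low humidity, 138 to 147 in col0 at high humidity and 144 to 159 in col0 at low humidity. Of 7 markers of stem vasculature 5 rose over both genotypes, where 41.6% of all tested genes passed, among them the cellulose synthases CESA8 (0.25 ± 0.06), CESA4 (0.23 ± 0.07) and CESA7 (0.20 ± 0.06) and the protease XCP2 (0.36 ± 0.12), with adjusted p = 0.00269, 0.0136, 0.0159 and 0.0453. Within genotypes 0 of the 7 passed in pip2, where 24.2% of all tested genes passed, and 4 in col0, where 30.2% did. CESA8, CESA4 and CESA7 stood at 0.09, 0.05 and 0.08 in pip2 (adjusted p = 0.516, 0.735 and 0.542) and at 0.42, 0.41 and 0.31 in col0 (adjusted p = 0.00123, 0.00527 and 0.0113), with interactions that did not pass (adjusted p = 0.433, 0.522 and 0.713). Their summed level was 379 to 413 CPM in pip2 at high humidity, 337 to 353 in pip2 at low humidity, 400 to 481 in col0 at high humidity and 335 to 378 in col0 at low humidity. The call of CESA7 over both genotypes was lost without pip2 high replicate 3 (adjusted p = 0.0509) and that in col0 without col0 low replicate 1 or 2 (adjusted p up to 0.0581), and XCP2 kept its call in 2 of 12 omissions of a library (adjusted p 0.00596 to 0.0984). Of 6 meristem markers 1 rose, the receptor kinase CLV1, by 0.52 ± 0.05 (adjusted p = 1.45e-07). The part of tissue makeup in the differences of CAL, SEP2 and PI was not tested.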

How the data were processed

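Per the submitters' processing notes, Trimmomatic 0.39, HISAT2 2.2.1 and featureCounts 2.0.6 were used, with TAIR10 as the genome build. The deposited count table holds raw counts per gene, and the deposited TPM table holds TPM made by the authors. Strand and multi-mapping settings are not given in the sources used here. The count table lists only genes with a count in col0 low replicate 1, and 2537 of its genes have no TPM.

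Groups came from sample titles. Counts were filtered (filterByExpr, minimum count 10, minimum total 15), scaled by TMM and tested in edgeR 4.0.16 (R 4.3.3) over all 12 libraries with 1 mean per group, two-sided, with Benjamini-Hochberg adjustment and a threshold of 0.05. DESeq2 1.42.0 and limma 3.58.1 were alternatives, with each library left out in turn. SE is the absolute log2 fold change over the root of F. The test was tried on simulated counts. Exon lengths came from the TAIR10.1 annotation, which differs in name from the files' build, so no coordinates are given. All 10 genes are named. From each other list the genes past the threshold in either average comparison are named, at most 4 with the smallest adjusted p, or else the one with the smallest p. The members and lists were chosen with earlier results of these data known. For the genes most like AP1, AP3, AG and SEP3, the 3 with the highest correlation were taken, of which 1 is not reported here.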

Additional observations from a re-analysis of the deposited data

Results flagged for a closer look

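The humidity response of SPL5, a microRNA-regulated promoter of flowering among the activators of these genes, differed between genotypes. The interaction, pip2 minus col0, was 0.62 ± 0.13 on the log2 scale (adjusted p = 0.0438 by edgeR over all tested genes). SPL5 changed by -0.18 ± 0.09 in pip2 (adjusted p = 0.185) and by -0.79 ± 0.09 in col0 (adjusted p = 6.81e-06). At low humidity pip2 stood below col0 by a log2 fold change of -0.68 ± 0.09 (adjusted p = 0.000215), and at high humidity the difference was -0.06 ± 0.09 (adjusted p = 0.906). The interaction kept its direction without each of the 12 libraries (0.53 to 0.72) but passed in 1 of these 12, with adjusted p from 0.00895 to 0.139, so it is a marginal call. Under other settings its adjusted p was 0.00725 to 0.0814. The cause was not tested.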

How the results depend on the processing

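Of 1370 values of the 10 genes under alternatives, 1330 kept their direction and side of the threshold, 18 lost a call, 22 gained one and 0 reversed, while 32 values that passed in neither fit changed sign. The calls of SEP2 and CAL over both genotypes held in every setting run. The count for humidity in col0, 1 gene, became 2 with the size factors of DESeq2, with DESeq2 and with limma on log2(TPM + 1) or log2(TPM + 0.1), and 3 with only the groups compared, and it was 0 to 3 when 1 library was left out. PI was the gene added in each of these other settings, joined by AG with only the groups compared. The 2 genes for humidity in pip2 became 1 with limma at either pseudocount, and were 1 to 2 when 1 library was left out. Over all genes in col0, 6616 passed with the size factors of DESeq2, 6464 with DESeq2 and 6632 with only the groups compared. With limma 6195 and 6190 passed in col0, and 4766 to 6973 with 1 library left out. In pip2, 5216 and 5181 of all genes passed with limma, and 4021 to 5344 with 1 library left out. Nothing particular to the 10 is read from these counts. PI over both genotypes was lost with the robust option off (adjusted p = 0.0627). All 78 counts for genotype and interaction under alternatives stayed at 0. Few of all genes passed there. The lowest number was 32, for the interaction without col0 high replicate 2. The highest was 1243, for genotype over both humidities with the replicate block. These fits reuse the same libraries, and nothing particular to the 10 is read from the counts of 0. The cause of each change was not tested.

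Replicate numbers in the titles match across groups. Deviations of same-numbered libraries correlated at -0.03 to 0.38, with 12 of 18 over 0.1, so the numbers were not taken to pair the samples, although 11 of 12 libraries correlated best with one of their own number, a hint from the data and not from the design. With a replicate block the count in pip2 became 3 (FUL added, adjusted p = 0.0455), where 29.0% of all tested genes passed, that in col0 2, where 34.6% passed, and that over both genotypes 6, where 45.8% passed, and the call of XCP2 was lost (0.0856). CAL rests on 107 to 188 counts per library, which limits its precision most.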

Other observations

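Some genes stood high in the deposited TPM table and near 0 in the count table. SPL3, another promoter of flowering, had 0 to 2 counts per library but 282 to 572 TPM, and it was therefore not tested. Of 14126 genes with a mean of at least 10 TPM, 356 had a mean under 1 CPM. Of the 354 of these that matched the annotation, 93.5% overlapped another annotated gene, against 34.0% of all 14116 matched genes at that TPM. Of the 10 organ identity genes, SEP1 alone overlapped annotated genes, 2 in number. How each table assigned reads in such overlaps was not tested.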
